A study of Mus musculus with 6 samples.

Results

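The genes described here are the chemokines and their receptors of the mouse, small secreted proteins that steer white blood cells and the membrane proteins that sense them. They were chosen by name, as protein-coding genes with a symbol of the Ccl, Cxcl, Xcl, Cx3cl, Ccr, Cxcr, Xcr, Cx3cr or Ackr series, plus Pf4 and Ppbp, whose proteins are chemokines under older names. This rule found 61 gene identifiers (39 ligands and 22 receptors, with 58 symbols) among the 26644 genes listed in any of the 3 deposited tables. RNA sequencing had been done on mouse skin wounds sampled early, midway and late in healing, either treated with C-PC (phycocyanin, the blue pigment protein of the cyanobacterium Spirulina) or, as the negative control, given no treatment. The groups were C-PC early, C-PC middle, C-PC late, control early, control middle and control late, with 1 library each, and nothing was replicated within a group. The labels used here give no strain, age, dose or day, and do not say how the wounds were made, although the series title speaks of chronic wounds. Library totals lay between 15863637 and 18028674 reads on genes.

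Chemokines are grouped by the spacing of cysteines near their start into CC, CXC, CX3C and C types. CXC ligands with the residues ELR before that motif act on Cxcr2 and draw neutrophils into a wound, whereas Ccl2 and its relatives draw monocytes through Ccr2. Among other members, Cxcl12 of stromal cells acts on Cxcr4 and retains cells that bear it, and Ccl21 of lymphatic vessels acts on Ccr7. Atypical receptors, named Ackr, bind chemokines and remove them without the usual G protein signal.

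Many of these genes lie in a few clusters. Of the 61, 14 are on chromosome 11, 13 on chromosome 9 and 10 on chromosome 5, and all 61 have the same coordinates in the tables as in GENCODE release M21 (GRCm38). The neutrophil-attracting genes Cxcl5 (chr5:90759360-90761624), Ppbp (chr5:90768518-90770063), Cxcl3 (chr5:90786103-90789600), Cxcl1 (chr5:90891241-90893115) and Cxcl2 (chr5:90903871-90905938) stand side by side on the plus strand, with Pf4 (chr5:90772435-90773383) among them. RefSeq promoters (GRCm38.p6) matched 44 of the 58 symbols. The 130 bases before the start site are printed for Cxcl1, Cxcl2 and Cxcl3, which were near 0 in the same libraries, and for Ccl3 and Cxcl14 as a contrast, since Ccl3 was near 0 in those libraries too and Cxcl14 was not. Capitals mark matches to the kappa B pattern (GGG and TTCC with any 3 bases between them), searched on both strands, and to TATAAA, searched on the gene's strand.
Cxcl1, chr5:90891115-90891244, plus strand: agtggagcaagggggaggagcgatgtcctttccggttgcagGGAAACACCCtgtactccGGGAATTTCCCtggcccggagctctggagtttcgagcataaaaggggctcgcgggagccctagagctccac
Cxcl2, chr5:90903769-90903898, plus strand: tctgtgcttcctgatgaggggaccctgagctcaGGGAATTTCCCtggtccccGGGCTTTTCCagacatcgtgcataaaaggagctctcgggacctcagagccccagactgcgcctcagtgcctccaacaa
Cxcl3, chr5:90785971-90786100, plus strand: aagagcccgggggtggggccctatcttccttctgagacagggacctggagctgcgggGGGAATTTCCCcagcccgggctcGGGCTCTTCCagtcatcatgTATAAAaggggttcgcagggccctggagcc
Ccl3, chr11:83649379-83649508, minus strand: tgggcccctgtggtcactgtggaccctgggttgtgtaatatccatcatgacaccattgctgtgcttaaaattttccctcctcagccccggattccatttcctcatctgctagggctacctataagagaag
Cxcl14, chr13:56296552-56296681, minus strand: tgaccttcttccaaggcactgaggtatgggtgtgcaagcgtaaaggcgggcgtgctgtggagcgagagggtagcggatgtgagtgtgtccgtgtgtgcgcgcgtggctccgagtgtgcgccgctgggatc
In the run GGGAATTTCCC the pattern is met on both strands by matches that overlap. Over the 250 bases before the start, 9 of the 51 promoters of these 44 genes held a match, against 4.65% of 32851 promoters of all genes. They belonged to 9 genes (Ccl1, Ccl9, Ccl20, Ccr3, Ccr6, Cxcl1, Cxcl2, Cxcl3 and Cxcl10). At least 2 matches that do not overlap were found in 4 of the 51 promoters (Cxcl1, Cxcl2, Cxcl3 and Cxcl10), and in 0.103% of all promoters. Such a match is a run of letters, not a shown binding site.

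The 6 libraries differed widely in the tissues they held. Summed over 6 genes, skeletal muscle markers stood at 4232, 108982 and 1519 CPM in the early, middle and late C-PC libraries, against 9045, 6748 and 104932 CPM in the early, middle and late controls (CPM, reads scaled to a fixed total of reads on genes). Keratinocyte markers, which define skin epidermis, summed to 5.76, 4.54 and 2622 CPM with C-PC, against 0.499, 2073 and 3.15 CPM in the controls, and the basal keratins Krt5 and Krt14 had 0 reads in the middle C-PC and early control libraries. The skin label therefore stands on at most 5.76 CPM of epidermal markers in 4 of the 6 libraries. Fibroblast markers summed to 43056, 2626 and 10611 CPM with C-PC and to 38697, 65115 and 2180 CPM in the controls. In whole tissue, fewer cells of a type and less RNA per cell cannot be told apart.

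Ligand genes together made up 3756, 391 and 851 CPM in the early, middle and late C-PC libraries, against 3816, 2613 and 402 CPM in the controls. Receptor genes made up 888, 73.0 and 105 CPM with C-PC, against 1304, 668 and 72.2 CPM. Both early libraries and the middle control were thus rich in chemokine transcripts, whereas the late control and the middle C-PC library were poor in them and the late C-PC library lay between. Per kilobase of gene length, Ccl8 led in the early C-PC library at 577 FPKM, in the early control at 445 FPKM and in the middle control at 698 FPKM. Cxcl14 led in the middle C-PC library at 46.8 FPKM, in the late C-PC library at 212 FPKM and in the late control at 55.1 FPKM. Over the 50 genes listed in all 3 tables, Spearman's rho between libraries was 0.957 for the early pair, 0.850 for the late pair and 0.286 for the middle pair. Between C-PC middle and control late it was 0.931. Given this likeness and the marker levels above, it is in doubt whether the tissue or the labels of these libraries are as stated, and every middle and late ratio of C-PC over control rests on them as labelled. These genes are not independent replicates, and the coefficients only describe the libraries.

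**Figure D1:**
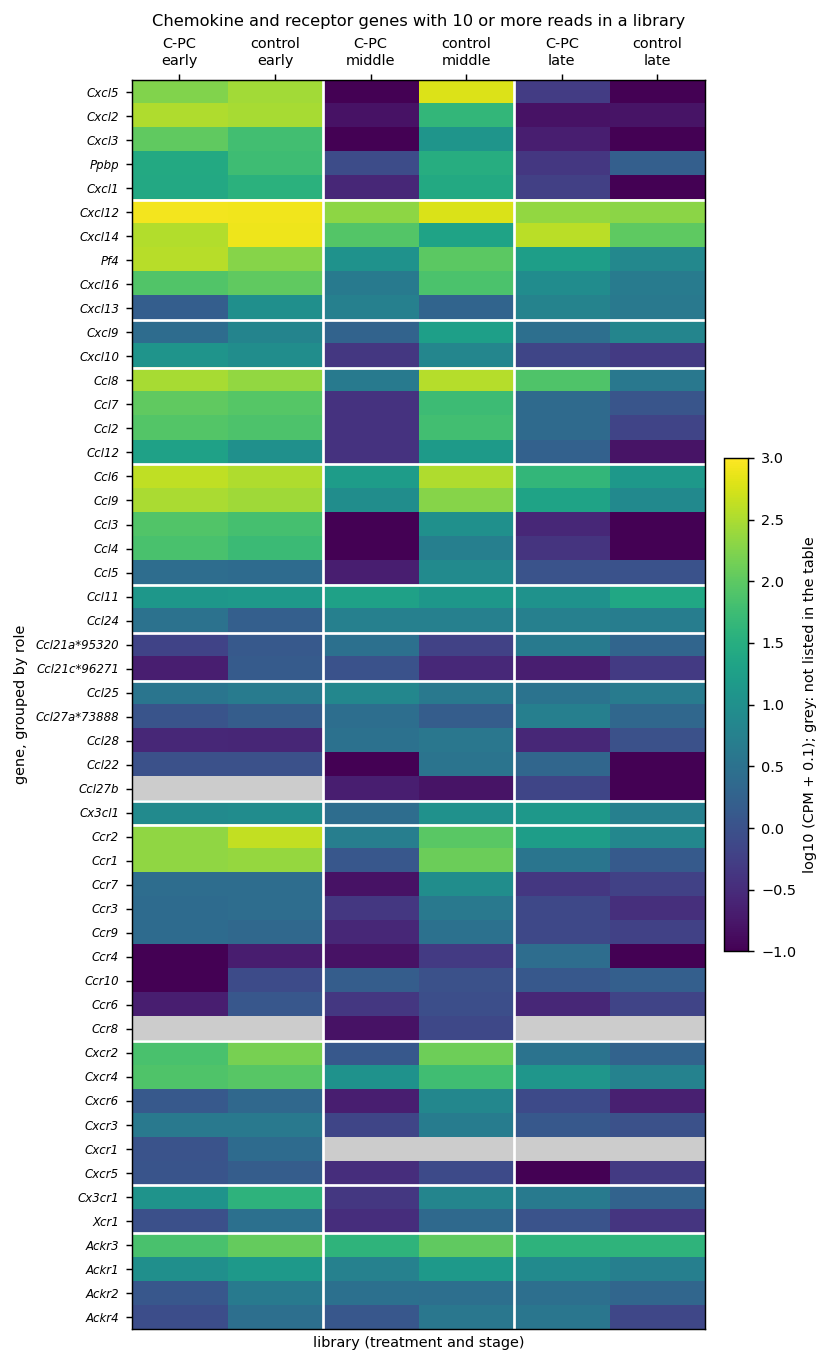
Heat map of log10(CPM + 0.1) for 52 chemokine and receptor genes with 10 or more reads in a library (rows, grouped by role between white lines) in the 6 libraries (columns, C-PC left of control in each stage). A symbol with an asterisk carries the last digits of its gene identifier, and grey marks a gene not listed in that stage's table. The inflammatory ligands and the receptors Ccr1, Ccr2 and Cxcr2 are bright in both early libraries and the middle control and dark in C-PC middle and control late.

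Within a stage C-PC was set against its control to see which of these genes differed between the 2 libraries. The log2 ratio is that of the authors' scaled values plus 2, with an exact 95% interval for counting error, and a gene with 10 or more reads in 1 of the 2 libraries was called higher or lower when the ratio was at least 2-fold and the interval excluded equality. At the early stage 1 of 49 genes compared was called higher (background over all genes 2.92%) and 13 lower (6.85%). In the middle comparison 8 of 50 were called higher (23.6%) and 34 lower (28.1%). Late, 9 of 41 were called higher (26.3%) and 4 lower (23.1%). The median log2 ratio of the genes compared was -0.19, -2.87 and 0.58 at the 3 stages, against 0.00, -0.13 and 0.15 over all genes. Scaling the libraries by total reads moved the median of all genes by -0.53 at the middle and 0.54 at the late stage, and gave 4 higher and 37 lower at the middle stage and 22 higher and 4 lower at the late stage. Genes with few reads in both libraries are left out of these counts, so a gene near 0 in one library passed only through the other.

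The authors' deposited table of each stage carries its own calls at an adjusted p of 0.05 and 2-fold. The authors' deposited table for the early stage called 0 of 55 chemokine and receptor genes listed higher with C-PC (0.502% of all genes listed) and 5 lower (1.94%). For the middle stage the authors' deposited table called 7 of 56 higher (16.7%) and 32 lower (19.6%), and for the late stage the authors' deposited table called 8 of 54 higher (18.4%) and 4 lower (16.6%).

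**Figure D2:**
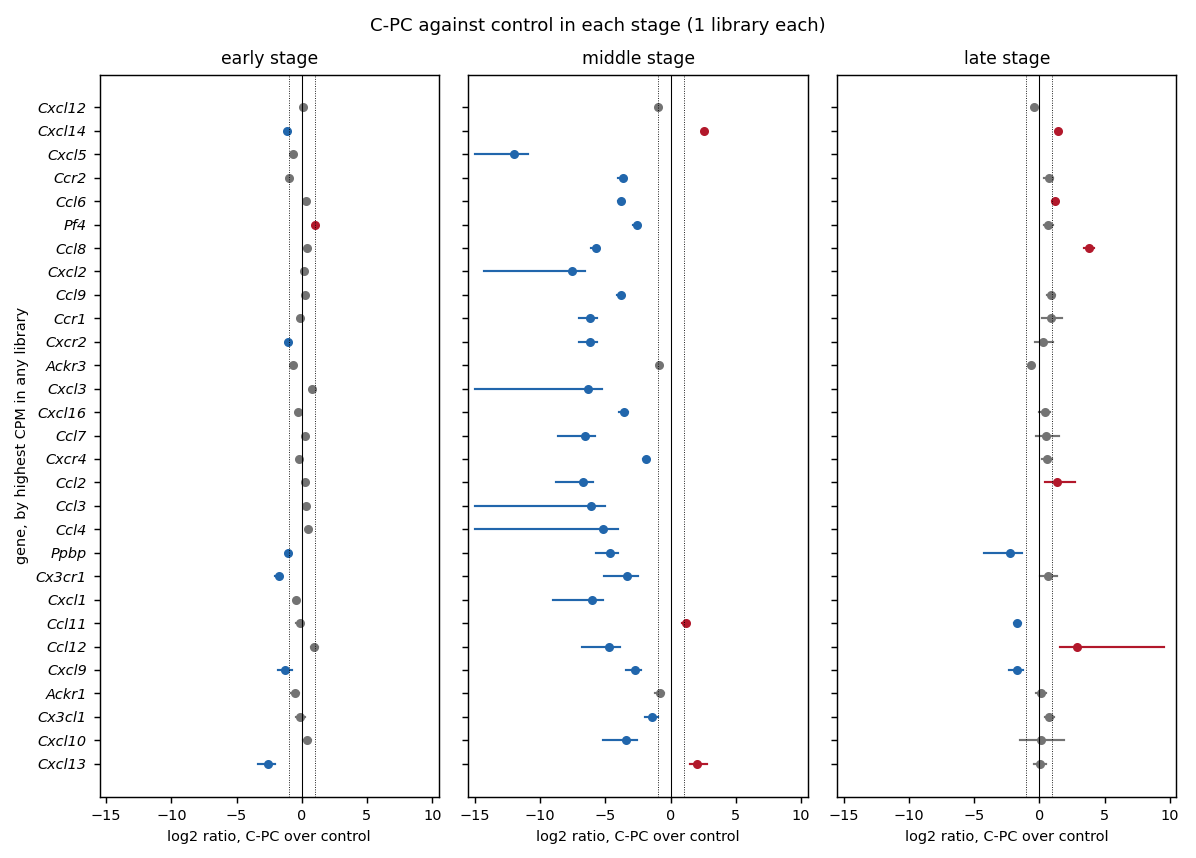
Log2 ratio of C-PC over control (x axis) for 29 of the genes with the highest CPM in any library (y axis), in the early, middle and late stage. Points are ratios and bars exact 95% counting intervals, drawn to the left edge where the C-PC library had 0 reads, with red for higher, blue for lower and grey for no call, dotted lines at 2-fold, and no point where neither library had 10 reads. At the early stage most points lie within 2-fold, with Cxcl13 at -2.58 and Cx3cr1 at -1.77 farthest out, and the points lie mostly far to the left at the middle stage, with Cxcl14, Ccl11 and Cxcl13 to the right.

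The neutrophil-attracting ligands were nearly absent from the middle C-PC library. Cxcl5, made by epithelial and stromal cells, stood at 174, 0 and 0.411 CPM in the early, middle and late C-PC libraries and at 278, 617 and 0 CPM in the controls. Cxcl2 stood at 331, 0.058 and 0.059 CPM with C-PC, against 296, 44.6 and 0.062 CPM. Cxcl3 gave 106, 0 and 0.117 CPM with C-PC, against 61.1, 11.9 and 0 CPM. For each of these, both early libraries and the middle control were high and the other 3 libraries were at or near 0. At the middle stage Cxcl5, with 0 reads in the C-PC library and 9783 in its control, was at least 2422-fold lower (against a floor of 3 reads), Cxcl3 at least 46.8-fold lower, and Cxcl2, with 1 read against 708, gave a log2 ratio of -7.59 (-14.34 to -6.56). Cxcl1, the ligand also known as KC, had 26.1, 0.175 and 0.470 CPM with C-PC and 35.3, 26.7 and 0 CPM in the controls, a middle ratio of -6.06 (-8.99 to -5.15). The early ratios pointed both ways, at 0.82 (0.71 to 0.93) for Cxcl3, 0.18 (0.13 to 0.24) for Cxcl2, -0.41 (-0.59 to -0.24) for Cxcl1 and -0.65 (-0.71 to -0.58) for Cxcl5, none of them 2-fold. Summed over the list of 5 ligands, which includes Ppbp, levels were 665, 0.989 and 1.41 CPM with C-PC, against 727, 731 and 1.61 CPM in the controls. Neutrophil markers (8 genes) summed to 1493, 58.9 and 39.6 CPM with C-PC and to 3168, 2160 and 168 CPM in the controls, with Ly6g at 0 reads in the late C-PC library, and their part in these results was not tested.

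Pf4 and Ppbp, neighbours on chromosome 5, encode the main chemokines of platelet granules, and Pf4 is also made by tissue macrophages. They went opposite ways at the early stage. Pf4 stood at 373, 10.7 and 17.3 CPM in the early, middle and late C-PC libraries and at 188, 96.5 and 7.29 CPM in the controls. Ppbp stood at 27.0, 0.756 and 0.352 CPM with C-PC and at 57.2, 30.6 and 1.54 CPM in the controls, below its control at each stage. The early log2 ratio was 1.01 (0.95 to 1.07) for Pf4, the only gene of the set called higher there, and -1.06 (-1.22 to -0.90) for Ppbp. The Pf4 call lies at the 2-fold line and was lost with total-read scaling (0.99) and with DESeq2 size factors (0.99). Per gene length Pf4 exceeded Ppbp 20.8, 21.3 and 73.6 times in the C-PC libraries, against 4.95, 4.73 and 7.09 times in the controls, with 6 to 25 reads of Ppbp in the middle C-PC and both late libraries. At the late stage Ppbp, with 6 reads in the C-PC library and 25 in the control, was lower at -2.28 (-4.26 to -1.36). Other platelet genes (4 found of 5, among them Itga2b) summed to 52.8, 7.27 and 24.8 CPM with C-PC and to 124, 106 and 9.33 CPM in the controls, 3 of 4 of them lower at the early stage. Their part in the ratio of Pf4 to Ppbp was not tested.

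Monocyte-attracting CC ligands were higher in the late C-PC library than in the late control, after being far lower in the middle one. Ccl8, which acts on Ccr8 in mice, stood at 295, 4.42 and 78.9 CPM with C-PC and at 227, 357 and 3.83 CPM in the controls. Its log2 ratios were 0.40 (0.34 to 0.46), -5.76 (-6.13 to -5.46) and 3.78 (3.45 to 4.21) at the early, middle and late stage. Ccl2, the main ligand of Ccr2, stood at 85.6, 0.291 and 2.35 CPM with C-PC and at 75.4, 60.6 and 0.556 CPM in the controls, with ratios of 0.21, -6.73 (-8.78 to -5.93) and 1.38 (0.46 to 2.76), the last not called with a pseudocount of 10 (0.995). Ccl12, a further Ccr2 ligand of mice, had 19.7, 0.291 and 1.64 CPM with C-PC and 10.2, 14.8 and 0.0618 CPM in the controls. It was called lower at the middle stage (-4.71) and higher at the late stage (2.91, 1.59 to 9.54), where it had 28 reads in the C-PC library and 1 in the control. Ccl7, another Ccr2 ligand, had 104, 0.291 and 2.29 CPM with C-PC and 88.4, 55.3 and 1.05 CPM in the controls, lower in the middle (-6.60, -8.65 to -5.80) and not called late (0.53, -0.28 to 1.49; 1.04 with total-read scaling). In the late C-PC library Ccl8 reached 154 FPKM, against 2.06 to 3.06 FPKM for Ccl2, Ccl7 and Ccl12.

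The macrophage inflammatory ligands split by gene. Ccl6 and Ccl9, ligands of Ccr1 made by myeloid cells in mice, were present in all 6 libraries. Ccl6 stood at 411, 16.1 and 44.3 CPM with C-PC and at 338, 337 and 13.5 CPM in the controls, and its ratios were 0.30, -3.84 (-4.03 to -3.67) and 1.16 (0.94 to 1.39). Ccl9 stood at 310, 8.96 and 21.02 CPM with C-PC and at 270, 187 and 7.91 CPM in the controls, with a middle ratio of -3.83 (-4.08 to -3.61) and a late one of 0.85, past 2-fold with total-read scaling (1.40). Ccl3 and Ccl4, near neighbours on chromosome 11, had 0 reads in C-PC middle and in control late. Ccl3 gave 83.2, 0 and 0.176 CPM with C-PC and 66.3, 10.1 and 0 CPM in the controls, at least 39.9-fold lower at the middle stage. Ccl4 gave 71.0, 0 and 0.294 CPM with C-PC and 52.5, 5.30 and 0 CPM in the controls, at least 20.8-fold lower. Macrophage markers (8 genes) summed to 6138, 377 and 725 CPM with C-PC and to 5973, 4981 and 278 CPM in the controls, the same order of libraries within each pair as for the monocyte-attracting and macrophage ligands. None of the 8 was at 0 in any library, and their part in these ligand levels was not tested.

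**Figure D3:**
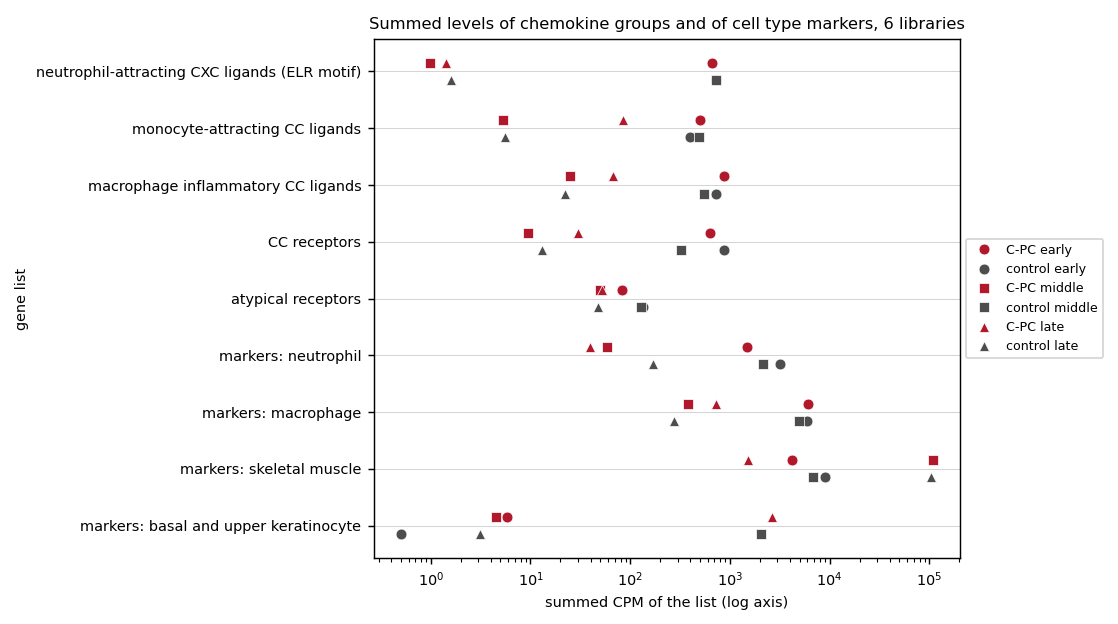
Summed CPM (x axis, log scale) of chemokine and receptor lists and of cell type marker lists (y axis), with red for C-PC and grey for control libraries and circles, squares and triangles for the early, middle and late stage. In the top row the early control and middle control points lie on each other at 727 and 731 CPM. The 3 ligand lists drawn and the CC receptors separate both early libraries and the middle control from the other 3, as neutrophil and macrophage markers do, while muscle markers are highest in C-PC middle and control late.

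The interferon-induced ligands Cxcl9 and Cxcl10, which draw T cells through Cxcr3, did not move as a pair. Cxcl9 stood at 2.49, 1.75 and 2.76 CPM with C-PC and at 6.27, 18.2 and 6.55 CPM in the controls, so each C-PC library lay below its control. Its ratios were -1.27 (-1.85 to -0.78), -2.77 (-3.43 to -2.29) and -1.74 (-2.32 to -1.29), all called lower. Cxcl10 stood at 11.8, 0.349 and 0.587 CPM with C-PC and at 9.10, 6.74 and 0.371 CPM in the controls, with ratios of 0.40, -3.39 (-5.21 to -2.56) and 0.09. Cxcl10 shares 133 bases of exon with Art3 on the opposite strand, and the library kit does not mark strand. T and NK cell markers (8 genes) summed to 10.6, 0.640 and 7.51 CPM with C-PC, against 30.8, 42.4 and 3.52 CPM. The sum was thus below the control early and in the middle but above it late. Late it leaned on Cd4, at 3.93 CPM against 0.494 CPM, the only 1 called of 5 compared. Cd3e and Cd3g gave late ratios of 1.29 and 0.22, and Cd2, Cd3d, Cd8a, Ncr1 and Klrb1c -0.52, -0.31, -0.96, -0.49 and -1.15. The late intervals of all but Cd4 include 0. Cd3d, Cd8a and Ncr1 had fewer than 10 reads in both late libraries, so these markers give no clear late direction. Cd3e, Cd3g and Cd8a had 0 reads in the middle C-PC library. B cell markers (4 genes) summed to 2.08, 0.931 and 1.17 CPM with C-PC, against 4.83, 13.4 and 4.57 CPM, below the control at each stage as Cxcl9 was. The sums of neutrophil and of granulocyte precursor markers were also below the control at each stage, although the neutrophil markers Il1r2 and Clec4d were called higher late. So were endothelial markers (6 genes), at 829, 850 and 322 CPM with C-PC, against 954, 1213 and 722 CPM. Lymphatic endothelial markers (3 genes) stood at 54.3, 38.5 and 14.0 CPM, against 93.6, 64.7 and 39.4 CPM. The part of all these cells in the Cxcl9 ratios was not tested.

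Ligands of resting tissue were present throughout and took other courses. Cxcl12, which retains Cxcr4-bearing cells, stood at 855, 207 and 228 CPM with C-PC and at 826, 588 and 205 CPM in the controls, and no stage was called (0.07, -0.96 and -0.39). With total-read scaling the middle ratio was -1.51, past 2-fold, and the late one 0.16, of the opposite sign. Cxcl14, a chemokine of epithelial and stromal cells, stood at 352, 85.5 and 387 CPM with C-PC and at 779, 20.99 and 101 CPM in the controls. It was lower with C-PC at the early stage (-1.12, -1.17 to -1.08) and higher at the middle (2.56, 2.40 to 2.75) and late stages (1.39, 1.32 to 1.47), with the middle control lowest of all 6. Hair follicle markers (5 genes) summed to 1.31, 0.349 and 41628 CPM with C-PC, against 0.333, 69.7 and 0.185 CPM, and keratinocyte markers to 2622 CPM in the late C-PC library, against 3.15 CPM in its control. At the middle stage both lists were lower with C-PC while Cxcl14 was higher, and their part in its late ratio was not tested. Cxcl13, which draws B cells through Cxcr5, had 1.48, 5.41 and 6.05 CPM with C-PC and 9.60, 1.83 and 4.08 CPM in the controls, lower early (-2.58, -3.34 to -2.06) and higher in the middle (2.03, 1.50 to 2.77). Both Cxcl14 and Cxcl13 thus gave early and middle ratios of opposite sign, against the direction of the inflammatory ligands at the middle stage. Cxcl16, a membrane-bound ligand of Cxcr6, behaved as those did, at 82.3, 4.13 and 8.86 CPM with C-PC, against 105, 72.2 and 4.57 CPM, although it shares 552 exon bases with Zmynd15 on the other strand. Cx3cl1, fractalkine, was highest in the late C-PC library, at 7.96, 2.62 and 13.7 CPM with C-PC and 8.71, 10.4 and 5.50 CPM in the controls, and was called lower only at the middle stage (-1.41, -1.95 to -0.96).

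**Figure D4:**
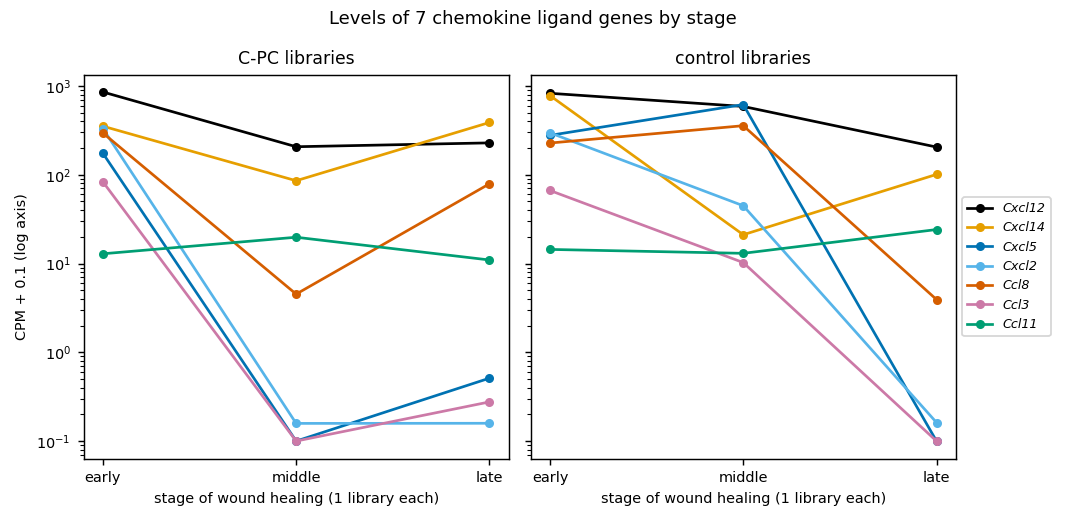
CPM + 0.1 (y axis, log scale) of 7 chemokine ligand genes at the early, middle and late stage (x axis) in C-PC libraries (left) and control libraries (right), with 1 library a point. Cxcl5, Cxcl2 and Ccl3 are near the bottom in the middle C-PC library, but in the controls Cxcl5 is highest in the middle at 617 CPM while Cxcl2 is lower there than early; Ccl11 stays between 10.9 and 24.0 CPM in all 6.

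The eotaxins draw eosinophils through Ccr3. Ccl11 stood at 12.8, 19.7 and 10.9 CPM with C-PC and at 14.3, 12.9 and 24.0 CPM in the controls. It was highest in the late control and the middle C-PC library, the 2 libraries rich in muscle and fat, and was called higher in the middle (1.14, 0.90 to 1.41) and lower late (-1.68, -1.95 to -1.44). The middle call was lost with total-read scaling (0.60). Ccl24 had 3.15, 5.41 and 5.52 CPM with C-PC and 1.55, 5.48 and 4.88 CPM in the controls, and no stage was called. Adipocyte markers (6 genes) summed to 360, 3519 and 1881 CPM with C-PC and to 446, 310 and 5298 CPM in the controls, the same order within each pair as Ccl11. Skeletal muscle markers had that order too, at 4232, 108982 and 1519 CPM with C-PC, against 9045, 6748 and 104932 CPM. The part of fat and of muscle in the Ccl11 ratios was not tested.

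Ligands of lymphatic vessels, epidermis and mucosa had few reads. The Ccl21a copy ENSMUSG00000095320 had 0.535, 2.85 and 4.17 CPM with C-PC and 1.22, 0.504 and 1.92 CPM in the controls, higher in the middle (2.73, 1.95 to 4.33), and the Ccl21c copy ENSMUSG00000096271 had 2, 16 and 2 reads with C-PC and 24, 3 and 6 in the controls. Ccl21 and Ccl27 genes have near-identical copies, so reads may be split between them and these values are uncertain. Ccl27a (ENSMUSG00000073888), a keratinocyte ligand of Ccr10, had 1.01, 2.74 and 5.28 CPM with C-PC and 1.39, 1.39 and 2.10 CPM in the controls, called higher in the middle (1.43, 0.77 to 2.33) but not with total-read scaling (0.92), with the late ratio of 0.75 becoming 1.28. Ccl22, a dendritic cell ligand of Ccr4, had 15, 0 and 34 reads in the C-PC libraries and 16, 53 and 0 in the controls. It was at least 13.1-fold lower in the middle and at least 7.36-fold higher late, and its receptor Ccr4 had 0, 1 and 44 reads with C-PC and 2, 6 and 0 in the controls, at least 9.53-fold higher late. In the late pair both ligand and receptor were thus read from the C-PC library alone. Dendritic and Langerhans cell markers (5 genes) summed to 37.4, 17.6 and 142 CPM with C-PC, against 46.1, 68.5 and 15.6 CPM. Most of the late C-PC sum was Epcam, at 130 CPM against 0.371 CPM in its control. Epcam followed the keratinocyte markers across libraries. It stood at 11.2 CPM in the middle control and at most 0.555 CPM elsewhere, while keratinocyte markers reached 2622 CPM in C-PC late and 2073 CPM in control middle. The sum is therefore no measure of dendritic cells alone. The other markers did not share 1 direction late. Cd207, with 42 reads against 1, and Itgax were called higher (3.46 and 1.52), Zbtb46 lower (-1.89), and Flt3 was not called (1.37). Cd4 had 67 late reads with C-PC against 8. The part of such cells in the ratios of Ccl22 and Ccr4 was not tested. Ccl28, an epithelial ligand of Ccr10, had 3, 52 and 3 reads with C-PC and 3, 59 and 14 in the controls, called lower late (-2.14, -5.28 to -1.003). Ccl25, the thymic and gut ligand of Ccr9, kept between 3.23 and 6.92 CPM in all 6 libraries, was called higher in the middle (1.27, 0.85 to 1.76; 0.74 and no call with total-read scaling), and shares 204 exon bases with Elavl1. Ccl27b, with 10 reads in the late C-PC library and 0 in its control, was at least 2.17-fold higher.

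Receptors of inflammatory cells were far lower in the middle C-PC library, and some were lower early as well. Ccr2, the monocyte receptor, stood at 215, 5.00 and 16.6 CPM with C-PC and at 423, 95.7 and 6.92 CPM in the controls. Its early ratio of -0.96 (-1.01 to -0.90) lay just inside 2-fold. Its ligands Ccl2 and Ccl7 were slightly higher at that stage (0.21 and 0.26), and Ccl12 was higher just inside 2-fold (0.96). Ccr1 stood at 215, 1.11 and 3.46 CPM with C-PC and at 235, 127 and 1.24 CPM in the controls. Ccr1, a receptor of Ccl3, Ccl6 and Ccl9, was not called early (-0.11) and was lower in the middle (-6.17, -7.03 to -5.65), as was Ccr2 (-3.69, -4.04 to -3.40). At the late stage Ccr1 and Ccr2 gave 0.88 and 0.70, not called, but past 2-fold with total-read scaling (1.40 and 1.24). Cxcr2, the neutrophil receptor, stood at 71.5, 1.16 and 3.23 CPM with C-PC and at 152, 131 and 1.79 CPM in the controls, and was lower early (-1.07, -1.17 to -0.97) and in the middle (-6.16, -6.99 to -5.64). Cxcr1, its close relative, had 16 reads in the early C-PC library and 43 in its control (-1.21, -2.23 to -0.45) and is not listed at the other stages.

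Cx3cr1, the fractalkine receptor of patrolling monocytes and tissue macrophages, was lower at the early stage and in the middle. It stood at 11.2, 0.349 and 4.23 CPM with C-PC and at 39.1, 6.43 and 1.79 CPM in the controls, with ratios of -1.77 (-2.03 to -1.55), -3.32 (-5.14 to -2.49) and 0.66 (0.05 to 1.37). Xcr1, the receptor of cross-presenting dendritic cells, had 14 reads in the early C-PC library and 53 in its control (-1.67, -2.76 to -0.93). Ccr6, the receptor of Ccl20, had 2, 6 and 3 reads with C-PC and 20, 13 and 9 in the controls, called lower early (-2.37, -6.34 to -1.16). Ccr10, the receptor of Ccl27 and Ccl28, had 0, 24 and 20 reads with C-PC and 13, 14 and 25 in the controls, at least 3.98-fold lower early and higher in the middle (1.09, 0.20 to 2.27), where the call was lost with total-read scaling (0.60). Of the 8 macrophage markers 0 were called early in either direction, as Ccr2 was not. Their early ratios had a median of 0.06 and ran from -0.13 (C1qb) to 0.69 (Mrc1). Granulocyte precursor markers (6 genes) summed to 13.0 CPM in the early C-PC library and 1919 CPM in its control, and neutrophil markers to 1493 and 3168 CPM. Of the 8 neutrophil markers 3 were called lower early (6.85% of all genes). The part of macrophages, granulocyte precursors and neutrophils in the early receptor differences was not tested. Cxcr4, widely expressed on leukocytes, was lower in the middle only, at 79.2, 11.0 and 12.6 CPM with C-PC and 91.9, 60.1 and 5.75 CPM in the controls (middle ratio -1.90, -2.14 to -1.68).

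The 4 atypical receptors summed to 83.0, 49.9 and 52.7 CPM with C-PC and to 136, 128 and 48.0 CPM in the controls. Ackr3, which takes up Cxcl12, stood at 71.3, 40.3 and 38.0 CPM with C-PC and at 114, 107 and 40.2 CPM in the controls, with ratios of -0.66, -0.87 and -0.63, none 2-fold with the authors' scaling. Ackr1, the Duffy receptor of venules, had 9.80, 5.64 and 8.22 CPM with C-PC and 14.3, 14.8 and 5.19 CPM in the controls, and no stage was called, although its exons share 361 bases with Cadm3 on the same strand. With total-read scaling the middle ratios of Ackr3 and Ackr1 were -1.41 and -1.37, past 2-fold. Ackr2, a scavenger of inflammatory CC chemokines, was lower early, with 19 reads in the C-PC library and 79 in its control (-1.83, -2.74 to -1.20). Ackr4, a scavenger of Ccl21 and Ccl25, was lower early (13 reads against 50) and in the middle (19 against 59) and higher late (61 against 10, 1.83, 1.01 to 3.12), with 479 exon bases shared with Acad11 on the opposite strand.

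Genes that act below the receptors and genes that induce chemokines were set beside these by their fixed lists. Of 24 signalling genes, which include G protein subunits, arrestins and the Rac activator Dock2, none was called early (median -0.17), 1 was higher and 18 lower in the middle (median -1.87, against 23.6% of all genes higher and 28.1% lower), and 3 were higher and 2 lower late (median 0.03, against 26.3% higher and 23.1% lower). The same shares stand behind the inducer list. Dock2 gave a middle ratio of -3.69 and Vav1, another Rac activator, -4.23, whereas Gnai2, the main inhibitory G protein subunit of leukocytes, gave -1.40. Ccrl2, a receptor-like protein that binds chemerin, was lower in the middle (-1.10) and late (-3.29), with 1.29 CPM in the late C-PC library and 9.51 in its control. Of the inducer list 18 genes were compared early with none called (median -0.01), 18 in the middle with 17 lower (-2.31), and 16 late with 4 higher and 1 lower (0.22). Il1b, an inducer of many chemokines through NF-kappa B, gave 0.13, -9.74 and 1.26 at the 3 stages, and its receptor Il1r1 -0.03, -3.24 and 1.55. Nfkbiz, an NF-kappa B cofactor, gave -0.17, -4.38 and 1.71. With Il1a, these are the 4 inducers called higher late, and the late Il1b ratio rests on 22 reads against 5. The list did not share that rise. Late, Nfkb1, Nfkb2 and Rela gave 0.41, 0.11 and 0.03, and Nfkbia and Relb -0.23 and -0.76, none called. Irf1 was the 1 called lower (-1.20). Tlr2 gave -0.30, -4.70 and 0.33 at the 3 stages. Il6 gave -0.95 early and -6.99 in the middle, with at most 3 reads in a late library.

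The early and middle controls, 2 libraries rich in these transcripts, were then compared by their recovered reads with TMM scaling, a comparison chosen after the data were seen. Of 49 genes compared, 8 were higher in the middle control (background 8.64%) and 10 lower (5.46%). Cxcl14 was lowest, with 333 reads in the middle control and 14037 in the early one (-5.12, -5.29 to -4.97). Ccl4 (-3.20, -3.56 to -2.90), Cxcl2 (-2.64, -2.76 to -2.53), Ccl3 (-2.61, -2.87 to -2.38) and Cxcl3 (-2.26, -2.50 to -2.05) were lower in the middle control, while Cxcl5 was higher (1.24, 1.19 to 1.29) and Ccl8 higher without reaching 2-fold (0.73). The neutrophil-attracting ligands of one cluster thus took different directions: per gene length Cxcl5 exceeded Cxcl2 15.3 times in the middle control and 1.04 times in the early control. Ccr2 was lower in the middle control (-2.06, -2.14 to -1.98), and Cxcr2 nearly level (-0.13). Cxcl9 (1.61), Ccl5 (1.81), Ccr7 (1.88), Cxcr6 (1.76), Ccl22 (1.86), Ccl24 (1.83) and Ccl28 (3.82, 2.95 to 6.89) were higher in the middle control. Of these, Cxcr6 and Ccr7 are receptors of lymphocytes and dendritic cells. T and NK cell markers were higher there in 4 of 8, B cell markers in 3 of 3 and keratinocyte markers in 5 of 5 compared, and their part in these ratios was not tested. This comparison shares its libraries with the early and middle comparisons of C-PC, and it has 1 library a side.

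Over the stages, the C-PC effect was tested with limma on log2(deposited value + 2) with stage as a block, which asks whether the difference between C-PC and control repeats from stage to stage. Of 49 chemokine and receptor genes among 16595 genes tested, 0 passed a Benjamini-Hochberg adjusted p of 0.05 (background 0%), and 2 had an unadjusted limma p under 0.05 (0.934% of all genes). Those were Cxcl9, with an estimate of -1.93 ± 0.61 (SE, limma adjusted p = 1.00), and Ppbp, with -2.65 ± 0.89 (SE, limma adjusted p = 1.00). Each was lower in 3 of 3 C-PC libraries than in its control, as were the summed neutrophil, granulocyte precursor and B cell markers. The pattern was not particular to leukocytes, since the summed endothelial and lymphatic endothelial markers were below the control at each stage too. Granulocyte precursor markers stood at 13.0, 42.5 and 4.76 CPM with C-PC, against 1919, 1256 and 120 CPM. The part of all these cells in both genes' estimates was not tested. Another 4 genes were lower at all 3 stages: Ackr3 (-0.72 ± 0.33), Ccr6, Cxcr5 and Cxcr3, and 0 were higher at all 3, against 7% of all genes tested lower and 6.98% higher at all 3. Cxcr3 gave only -0.02 early and -0.10 late, with intervals that include 0, and its late ratio was 0.39 with total-read scaling. Cxcr5 was called at no stage, with early and middle intervals that include 0 and late reads of 0 against 6, below the filter. Ccr6 had a middle interval of -2.37 to 0.81 and late reads of 3 against 9, also below the filter. The edgeR quasi-likelihood test on recovered reads called 0 of the 49 at an adjusted p of 0.05 and 2 at an unadjusted p under 0.05, and DESeq2 also 0 and 2. In this fit a gene whose difference turned round between stages has a large error whatever its spread between animals.

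The remaining genes were near the limit of detection. Of the 61, 8 had fewer than 10 reads in every library: Ccl1, Ccl17, Ccl20, Cxcl17, Xcl1, the second copies of Ccl21a and Ccl27a (ENSMUSG00000094686 and ENSMUSG00000095247) and the second copy of Ccl21c (ENSMUSG00000096873). The skin- and T-cell-related ligands Ccl17 and Ccl20 therefore gave at most 3 reads in any library. At the early stage 10 genes outside those chosen for full values were compared, with ratios between -1.68 and 0.19 and 3 called lower (6.85% of all genes); at the middle stage 10 gave -5.32 to -0.79 with 9 lower (28.1%); and at the late stage 7 gave -0.47 to 1.83 with 1 higher (26.3%). Among the lower ones of the middle stage were Ccr7, with 1 read in the C-PC library and 145 in its control (-5.32, -12.06 to -4.25), Ccl5 with 2 against 130 (-4.72, -8.65 to -3.71) and Cxcr6 with 2 against 111 (-4.49, -8.43 to -3.48).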

How the data were processed

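Libraries came from column-purified total RNA and a library kit without strand marking, per the labels' protocols. Which aligner, counter and annotation were used is not given in the sources used here. Only hg38, a human build, is named in the submitters' processing notes, whereas the tables hold mouse genes. The authors deposited, per stage, a signal for each library, read counts scaled to a common size of the 2 libraries, beside the p-value, its adjusted form and the log2 fold change that the authors computed, per the file headers. Each signal is a near-whole multiple of 1 step per library, and at least 99.98% of values gave whole reads within 0.1 read. Genes with under 2 reads over a pair are not listed.

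CPM and FPKM were computed from recovered reads, their totals on genes and, for FPKM, the tables' gene lengths. Since the values are scaled, limma 3.58.1 (trend and robust settings) was run on log2 values, with 2 residual degrees of freedom, and edgeR 4.0.16 and DESeq2 1.42.0 on recovered reads were alternatives. Within a stage the exact conditional binomial interval covers counting error only. On counts simulated for the C-PC effect over the stages (16595 genes, dispersion 0.1), limma found 11.8% of the genes set to differ 2-fold, 88.1% of those set to 4-fold and 100% of those set to 16-fold. The simulated counts had no difference between stages and the same C-PC effect at each stage. The real libraries differed widely in tissue and many ratios turned round between stages, so these shares do not carry over to the real fit.

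The genes, lists and rules were chosen with earlier results of these data known. Values in every library were due for the 30 genes with the highest CPM and the 5 highest and 5 lowest ratios of each stage; others are given by counts, or were named after their values were seen. One gene of the set is not reported here by name, although counts and sums include it. Alternatives were scaling by total reads or DESeq2 size factors, pseudocounts of 0.5 and 10, no filter or 30 reads, and leaving out each stage. Coordinates are on GRCm38.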

Additional observations from a re-analysis of the deposited data

Results flagged for a closer look

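For 12 of the 49 genes compared at 2 or more stages, C-PC was called higher at 1 stage and lower at another, against 29.2% of 16851 genes overall. With 1 library a group the differences between stages were not tested. Late minus middle, the log2 ratios differed by 9.54 for Ccl8, 8.45 for Ccl22, 8.11 for Ccl2, 7.62 for Ccl12, 5.00 for Ccl6 and -2.82 for Ccl11. Middle minus early, they differed by 4.78 for Ccl21c (ENSMUSG00000096271), 4.61 for Cxcl13, 3.94 for Ccr10, 3.68 for Cxcl14 and -3.63 for Pf4. Late minus early, Cxcl14 differed by 2.52 and Ackr4 by 3.51, and Ackr4 by 2.96 late minus middle. Over these stages the muscle markers changed sides too, with a summed level of 108982 CPM in the middle C-PC library against 6748 in its control, and of 1519 CPM in the late C-PC library against 104932 in its control. Their part in these differences was not tested.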

How the results depend on the processing

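The early count of 1 gene higher with C-PC became 0 with total-read scaling and with DESeq2 size factors, and 2 with a pseudocount of 0.5. With total-read scaling 4 genes were higher at the middle stage in place of 8, and 22 at the late stage in place of 9, which follows from the shift of all ratios by that scaling. With a filter of 30 reads 2 genes were lower late in place of 4, as fewer genes were compared. The other counts kept within 1.5 times under each alternative. Over all genes tested for the C-PC effect, DESeq2 called 55 where limma called 0, and the cause was not tested; edgeR, a pseudocount of 0.5, no filter and no stage block called 0, and leaving out each stage in turn gave 0 to 0. Of 113 named ratios, 5 lost and 15 gained a call with total-read scaling. No paired analysis was possible because each group holds 1 library, beyond the stage block itself, which sets C-PC against control within each stage. Depth limits genes with few reads, and the absence of replicates limits all ratios.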

Other observations

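Close relatives outside the name rule took their own courses. Cxcl11, annotated as a polymorphic pseudogene in this build, had 22, 4 and 1 reads in the early, middle and late C-PC libraries and 23, 3 and 5 in the controls. Ccl19-ps3, annotated as an unprocessed pseudogene, had 5, 19 and 0 reads with C-PC and 8, 4 and 42 in the controls, so it was highest in the late control and the middle C-PC library, and its reads may be shared with near-identical Ccl19 copies. Ccr1l1, a gene next to Ccr1 in name, had at most 3 reads in any library in which it was listed.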
